A study of Rattus norvegicus with 6 samples.

Results

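The receptor subunits for glutamate and GABA were examined in rat trigeminal ganglia, where the neurons that sense touch, temperature and pain on the face have their cell bodies. Members were taken by symbol: the AMPA (Gria), kainate (Grik), NMDA (Grin) and delta (Grid) subunits of ionotropic glutamate receptors, the metabotropic glutamate receptors (Grm), the GABAA subunits (Gabr) and both GABAB subunits (Gabbr1 and Gabbr2). Of 47 matching symbols, 46 had at least 10 counts summed over the 6 libraries and became members, out of 29884 genes in the table; Gabrr3, with 2 counts, was left out. They comprise 18 ionotropic glutamate subunits, 8 metabotropic glutamate receptors, 18 GABAA subunits and 2 GABAB subunits.

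Glutamate is the excitatory transmitter that these sensory neurons release onto neurons of the brainstem, and ionotropic receptors are assembled from several subunits around an ion channel, whereas metabotropic receptors signal through G proteins. GABAA receptors are chloride channels; sensory neurons hold much internal chloride, so GABA depolarizes them, in contrast to most mature central neurons. GABAB receptors are G protein-coupled dimers of both subunits and reduce calcium entry and transmitter release.

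Bulk RNA-seq was done on 6 samples of wild type rat trigeminal ganglia. The 3 injury samples came after chronic constriction of the infraorbital nerve (CCI-ION), a model of trigeminal neuralgia, and the 3 conduit samples after the same constriction with SFM-Gel @NGC-Light, a light-driven gel in a nerve conduit. All 6 ganglia thus came from constricted rats, and no uninjured ganglion was analysed here; sex, age and whether each sample is a separate animal are not given in the labels, so p-values measure the spread between these samples, which may be technical. The labels place injury samples 1 to 3 at days 14, 15 and 16 and conduit samples 1 to 3 at days 17, 18 and 19, rising by 1 from sample to sample in label order; whether these are true sampling days is unclear, and day and group cannot be told apart. Injury samples 1 and 2 are labelled batch 1, injury sample 3 and conduit sample 1 batch 2, and conduit samples 2 and 3 batch 3.

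The libraries held 40.2 M to 41.9 M counts, of which the members took 67348 to 75150, or 0.165% to 0.183%. Markers of sensory neurons were abundant in every library, with 20 of 20 in the table and a summed level of 25653 to 27954 CPM (counts scaled to a library's total, with TMM factors) in the injury group and 23724 to 33387 in the conduit group. Markers of other tissues were uneven: 8 pituitary markers summed to 6144 CPM in injury sample 1 against 1.43 to 17.0 elsewhere, and 7 measured skeletal muscle markers to 7903 CPM in conduit sample 2 and 448 in injury sample 1 against 7.50 to 16.2 elsewhere. Erythroid markers summed to 4441 to 5293 CPM in injury and 512 to 1273 CPM in conduit libraries, with 8 of 8 lower in conduit at an unadjusted p under 0.05. Schwann cell markers ran the other way, from 30125 to 36875 CPM in injury to 44052 to 50467 CPM in conduit libraries. Of them, 8 of 10 were higher at an unadjusted p under 0.05. Satellite glia markers were higher in conduit in 10 of 10, with 1 at an unadjusted p under 0.05. Macrophage markers were higher in 7 and lower in 3 of 10, with 2 higher at an unadjusted p under 0.05. The part of these tissues in the results was not tested, and in bulk tissue fewer cells of a type and less RNA per cell cannot be told apart.

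Levels between subunits were compared as FPKM, read fragments divided by gene length and by the library's total, averaged over the 6 libraries. Order and ratios between genes thus depend on the gene lengths used, which ran from 1786 bases (Gabrd) to 24734 bases (Grin2b). The ganglion's receptor transcripts were dominated by GABA receptors. GABAB subunits made up 41.6% of the members' summed FPKM, GABAA subunits 37.7%, ionotropic glutamate subunits 17.8% and metabotropic glutamate receptors 2.97%. Gabbr1, the subunit of the GABAB dimer that binds GABA, stood first at 121 ± 3.97 FPKM (SD, n = 6). Its partner Gabbr2, which couples the dimer to G proteins, had 33.5 ± 2.35 FPKM. Over the 6 libraries, the ranges of both genes overlapped neither with each other nor with the gene ranked next below each.

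Lower in the order, Grin1 (25.1 ± 2.86 FPKM), Gabra2 (24.6 ± 2.59) and Gabrg1 (20.9 ± 1.31) could not be ranked against each other, because their ranges over the libraries overlapped. Grik1 (11.3 ± 1.59 FPKM) stood apart from the gene ranked next, Grik5. Of the 45 pairs of neighbours in the full order, 37 overlapped and 8 did not. In all, 22 members averaged at least 1 FPKM and 11 averaged less than 0.1 FPKM. Among the least abundant were Grm6 at 0.0101 FPKM, Gabrp at 0.0199, Gabrr2 at 0.0255 and Grm5 at 0.0258. Grm5, which acts through phospholipase C, had 5 to 14 counts per library.

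**Figure D1:**
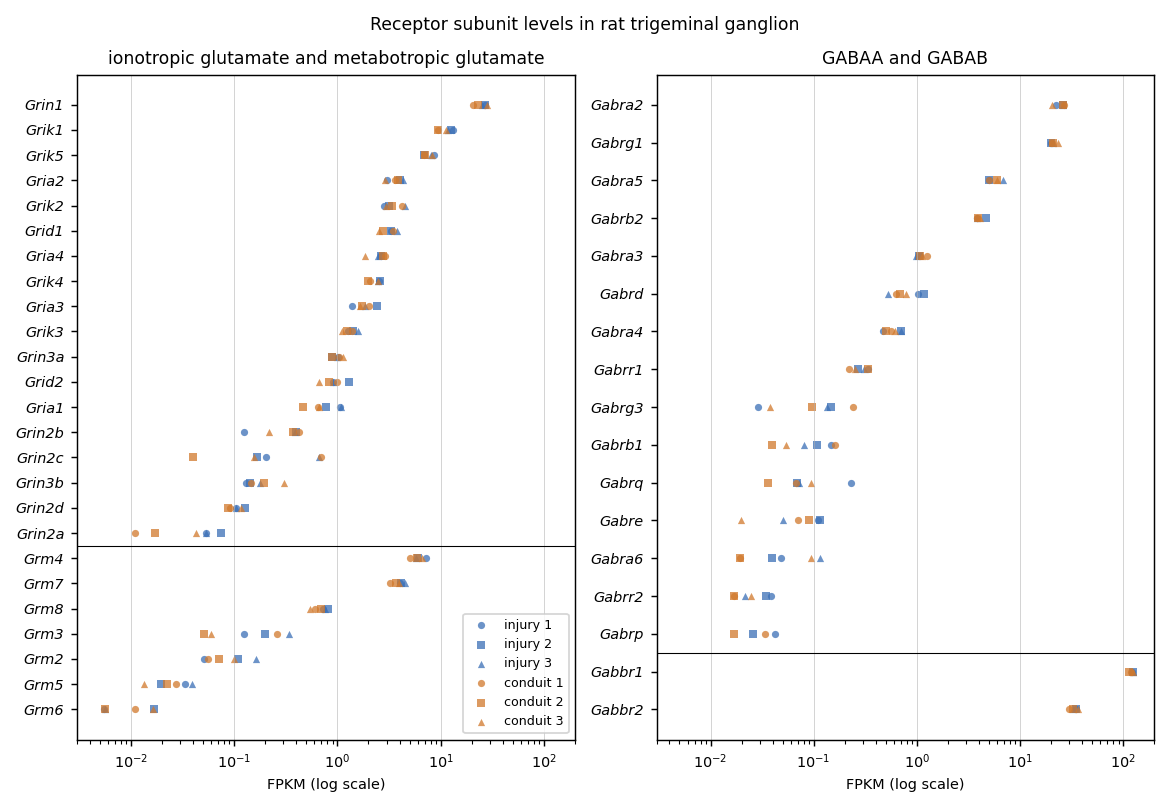
FPKM (log axis) of 42 of the 46 members in each of the 6 libraries, ordered by mean level within each receptor class; blue marks are injury and orange marks conduit libraries, and the 2 libraries in which Gabrp was at 0 are not drawn. Gabbr1 lies to the right of every other subunit, and the marks of both groups interleave for most members above 1 FPKM.

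The range of levels is large even between subunit genes that lie side by side in the genome, so the start-site sequences of 4 members are shown here to set high and low members next to each other. They are from RefSeq, build GRCr8, and run from 250 bases before to 50 bases after the annotated start, 5′ to 3′ on the gene's strand; capitals mark GC boxes, the letters GGGCGG on either strand. Gabbr1 (chr20:1499187-1499486, minus strand) and Grin1 (chr3:28528705-28529004, minus strand) are the highest members of the GABAB and the ionotropic glutamate class. Gabrg1 (chr14:37750042-37750341, plus strand) and Gabrb1 (chr14:36902844-36903143, minus strand) belong to 1 cluster of GABAA genes and differ in level from 20.9 to 0.0985 FPKM.
Gabbr1: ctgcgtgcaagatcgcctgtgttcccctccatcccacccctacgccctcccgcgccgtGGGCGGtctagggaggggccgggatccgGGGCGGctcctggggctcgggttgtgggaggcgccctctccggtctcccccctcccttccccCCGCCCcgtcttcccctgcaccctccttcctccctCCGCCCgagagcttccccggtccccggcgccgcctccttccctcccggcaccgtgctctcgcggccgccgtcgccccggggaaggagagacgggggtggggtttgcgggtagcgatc
Grin1: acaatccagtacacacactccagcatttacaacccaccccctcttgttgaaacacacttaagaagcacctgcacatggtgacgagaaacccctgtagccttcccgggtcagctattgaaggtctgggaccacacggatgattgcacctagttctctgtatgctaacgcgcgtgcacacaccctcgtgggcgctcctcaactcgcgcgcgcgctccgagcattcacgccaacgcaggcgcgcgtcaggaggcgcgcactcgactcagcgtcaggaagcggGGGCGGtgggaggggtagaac
Gabrg1: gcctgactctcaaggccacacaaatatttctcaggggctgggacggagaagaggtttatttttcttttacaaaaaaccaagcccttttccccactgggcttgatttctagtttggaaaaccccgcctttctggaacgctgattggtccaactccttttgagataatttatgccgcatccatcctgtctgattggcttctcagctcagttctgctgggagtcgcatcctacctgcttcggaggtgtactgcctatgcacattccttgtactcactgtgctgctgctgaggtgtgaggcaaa
Gabrb1: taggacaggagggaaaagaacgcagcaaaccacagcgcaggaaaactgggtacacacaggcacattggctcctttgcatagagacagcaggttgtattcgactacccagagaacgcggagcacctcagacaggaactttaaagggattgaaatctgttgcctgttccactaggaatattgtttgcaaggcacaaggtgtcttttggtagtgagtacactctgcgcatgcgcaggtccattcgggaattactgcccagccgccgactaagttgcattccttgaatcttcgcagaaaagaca

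The Gabbr1 window holds 4 GC boxes and 75% G or C, and the Grin1 window 1 box and 59.7%. Neither Gabrg1 (48.7% G or C) nor Gabrb1 (49.3%) has a box. Of the 46 members, 29 had a sequence of this kind. Their median content of G or C was 59.7%, against 52.3% over 27457 rat promoters of the same length, and 12 of 29 (41.4%) held at least 1 GC box, overlapping matches counted, against 34.9% of all promoters. A box was found in 7 of 14 members at or above 1 FPKM and in 5 of 15 below it, so boxes occurred on both sides of that level. The TATA box letters TATAAA, searched on both strands, were in 2 of 29 members (6.90%) and in 14.3% of all promoters.

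GABAA genes that neighbour each other in the GRCr8 annotation differed in level. In the cluster of Gabrb1, Gabra4, Gabra2 and Gabrg1, Gabra2 was 250-fold above Gabrb1 in FPKM, and Gabra4 had 0.590 ± 0.0975 FPKM. That ratio also depends on gene length, 3459 bases for Gabra2 and 13636 for Gabrb1. In counts per library, Gabra2 had 2950 to 3784 and Gabrb1 22 to 90. The rho subunit genes Gabrr2 and Gabrr1, also neighbours, differed 11.2-fold. The first cluster thus held both abundant and scarce subunits in the same ganglion.

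Conduit against injury was tested with edgeR's quasi-likelihood F test over all 16478 genes that passed its filter on low counts, with Benjamini-Hochberg adjustment over all of them. Of the 46 members, 40 passed the filter and 6 did not, among them Gabra6, Gabrp, Gabrr2 and Grm6. No member passed an adjusted p under 0.05, where 0.00607% of all tested genes did (1 gene, lower in conduit), and the smallest adjusted p among the members was 0.952. At an unadjusted edgeR p under 0.05 there were 0 members, against 5.35% of all tested genes (2.99% higher and 2.36% lower in conduit). DESeq2 called 0 of the 43 members to which it gave an adjusted p, against 1.19% of 17494 genes, and limma-voom called 0 of 40, against 0.00607%. At an unadjusted p under 0.05, DESeq2 had 1 of 46 members (Gria1), against 5.12% of all genes, and limma-voom 1 of 40 (Grin2a), against 4.77%, both lower in conduit. With 40 to 46 members, counts of 0 or 1 are too small to be set apart from the shares over all genes.

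The members' median log2 fold change (conduit minus injury) was -0.087, against 0.0017 over all tested genes. Lower values in conduit, of any size, were found in 28 of 40 members, against 49.5% of all tested genes. By class, the median was -0.11 for 18 ionotropic glutamate subunits (13 lower), -0.26 for 5 metabotropic receptors (5 lower), -0.050 for 15 GABAA subunits (10 lower) and 0.0061 for both GABAB subunits. In batch 2, the only batch with both groups, the median of conduit sample 1 minus injury sample 3 was -0.13 over the members and -0.0012 over all tested genes. Without the batch 2 libraries the members' median was -0.015, against 0.0025 over all tested genes. For 28 of the 40 members, the 95% interval of the fold change lay within 2-fold in both directions; for the other 12, each averaging under 1 FPKM, it did not.

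**Figure D2:**
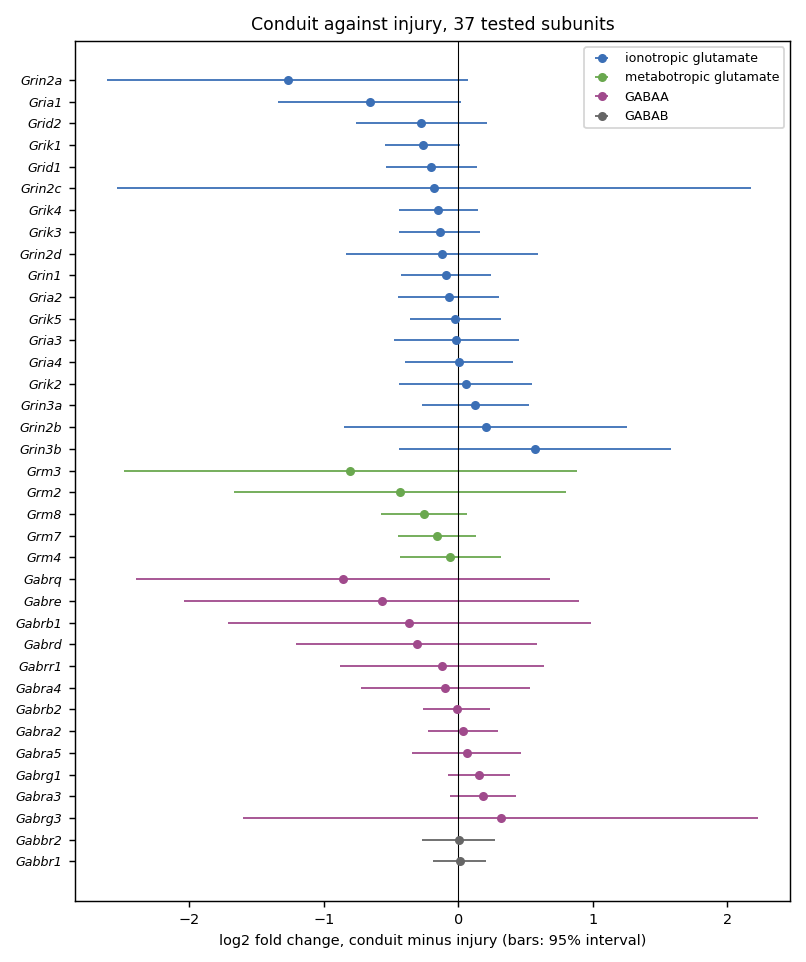
Log2 fold change (conduit minus injury) with its 95% interval from edgeR for 37 of the 40 tested members, ordered within each class; n = 3 libraries per group. Every interval includes 0, and the widest, such as that of Grin2c from -2.54 to 2.17, belong to scarce subunits.

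Among the AMPA subunits, which carry fast excitation, Gria2 was the most abundant at 3.62 ± 0.578 FPKM (SD, n = 6). Gria2 is the subunit that, after RNA editing, keeps calcium out of the channel, and it made up 37.1% to 44.3% of the summed AMPA FPKM over the 6 libraries. Gria4 had 15.4, 14.1 and 13.8 CPM in injury samples 1 to 3 and 16.1, 16.2 and 11.1 CPM in conduit samples 1 to 3. The groups overlapped, with conduit sample 3 lowest and conduit sample 2 highest. The log2 fold change of Gria4 was 0.0049 (SE 0.17, 95% interval -0.40 to 0.41, edgeR adjusted p = 1.00).

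Gria1, the scarcest AMPA subunit at 0.783 ± 0.243 FPKM, had 3.18, 2.20 and 3.18 CPM in injury samples 1 to 3 and 1.91, 1.43 and 2.08 CPM in conduit samples 1 to 3. All 3 conduit libraries lay below all 3 injury libraries. Its log2 fold change was -0.66 (SE 0.29, 95% interval -1.34 to 0.021, edgeR adjusted p = 0.952), and it was -0.72 within batch 2 and -0.61 without the batch 2 libraries. Groups without overlap, lower in conduit, were found in 3 of 40 members (Gria1, Grin2a and Grm8) and in 4.22% of all tested genes; higher in conduit, in 0 members and in 5.41% of all tested genes. In either direction that is 3 of 40 members, against 9.63% of all tested genes.

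Kainate receptors modulate transmitter release, and Grik1 encodes GluK1, the kainate subunit long known from small sensory neurons. Grik1 led the kainate family with 39.5% to 47.6% of its summed FPKM, followed by Grik5, an auxiliary high-affinity subunit, with 25.6% to 31.7%. Grik1 had 64.2, 57.8 and 54.8 CPM in injury samples 1 to 3 and 44.8, 46.1 and 56.2 CPM in conduit samples 1 to 3. Only conduit sample 3 reached the injury range. The log2 fold change of Grik1 was -0.27 (SE 0.12, 95% interval -0.54 to 0.010, edgeR adjusted p = 0.960), and within batch 2 it was -0.29. With 1 library left out it ranged from -0.38 (without conduit sample 3, edgeR adjusted p = 0.605) to -0.19 (without injury sample 1), and without both batch 2 libraries it was -0.26.

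Grik5 had 42.1, 31.5 and 38.2 CPM in injury and 32.8, 35.4 and 41.9 CPM in conduit samples. Its groups overlapped, with a log2 fold change of -0.022 (SE 0.14, edgeR adjusted p = 1.00). The summed deposited FPKM of the 5 kainate genes was 27.8 ± 0.906 in injury and 24.4 ± 1.40 in conduit (SD, n = 3), with no overlap. It was 1 of 15 sums compared, with an adjusted p of 0.5 (exact permutation test, Benjamini-Hochberg). The sums of all ionotropic glutamate genes and of the metabotropic genes did not overlap either. After TMM scaling the kainate sums were 27.3 ± 1.73 and 24.9 ± 2.07, and the groups overlapped for all of these sums. After scaling to sensory neuron markers the kainate and ionotropic sums overlapped. The metabotropic sums did not, at 11.3 ± 0.216 in injury and 10.7 ± 0.377 in conduit, with an adjusted p of 0.818 (same test).

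NMDA receptors need Grin1, the obligatory GluN1 subunit, together with Grin2 or Grin3 subunits. Grin1 made up 89.5% to 94.2% of the summed NMDA FPKM, and its FPKM was 16.8 to 55.5 times the summed FPKM of the 4 Grin2 genes. These values depend on the gene lengths used, 4343 bases for Grin1 and 4948 (Grin2c) to 24734 bases (Grin2b) for the Grin2 genes. Grin1 had 119, 112 and 108 CPM in injury samples 1 to 3 and 87.8, 101 and 127 CPM in conduit samples 1 to 3. The conduit libraries spread on both sides of the injury range, and the log2 fold change was -0.094 (SE 0.14, 95% interval -0.43 to 0.24, edgeR adjusted p = 1.00).

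Grin2a, one of the GluN2 subunits that bind glutamate, was among the scarcest members at 0.0421 ± 0.0241 FPKM. It had 34, 47 and 34 counts in injury samples 1 to 3 and 7, 11 and 28 counts in conduit samples 1 to 3. All conduit libraries lay below the injury libraries, with conduit sample 3 closest to them. The log2 fold change was -1.27 (SE 0.56, 95% interval -2.61 to 0.069, edgeR adjusted p = 0.975), and within batch 2 it was -1.99. With 1 library left out it ranged from -2.04 (without conduit sample 3, edgeR adjusted p = 0.598) to -0.91 (without conduit sample 1), and without both batch 2 libraries it was -0.995.

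**Figure D3:**
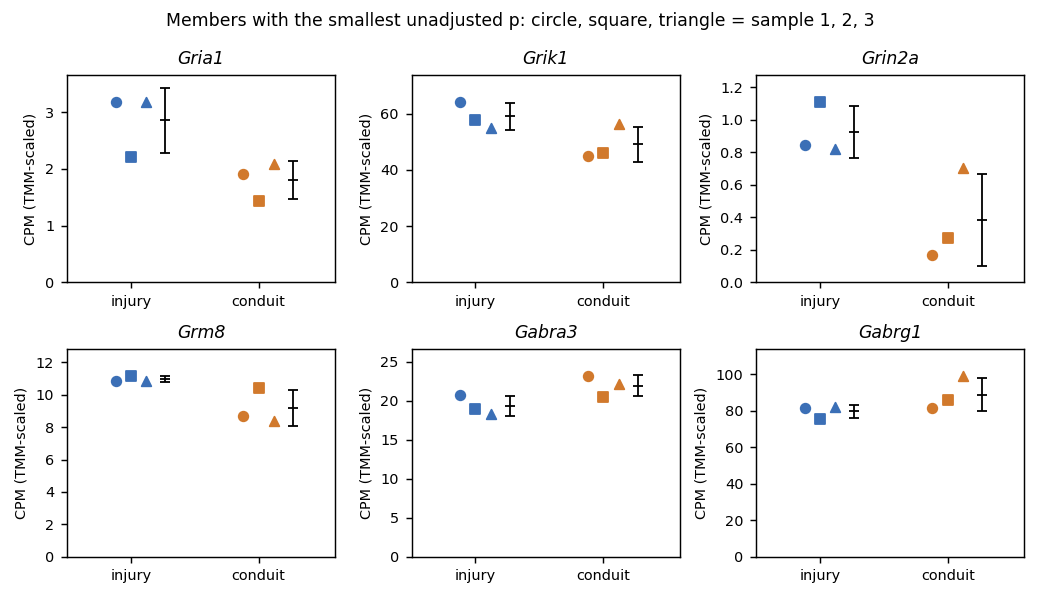
TMM-scaled CPM per library of the 6 members with the smallest unadjusted edgeR p; circles, squares and triangles are samples 1, 2 and 3 of each group, and black bars are the mean ± SD over n = 3. The groups do not overlap for Gria1, Grin2a and Grm8, and overlap for Grik1, Gabra3 and Gabrg1.

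Grin2c, a GluN2 subunit best known from cerebellum, had 1.02, 0.781 and 3.21 CPM in injury samples 1 to 3 and 3.40, 0.201 and 0.804 CPM in conduit samples 1 to 3. Grm3, a group II metabotropic receptor that lowers cyclic AMP and is found on astrocytes in the brain, had 0.671, 0.993 and 1.76 CPM in injury and 1.35, 0.276 and 0.326 CPM in conduit samples. Both genes, singled out after their values were seen, were highest in injury sample 3 and conduit sample 1, the batch 2 libraries.

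The summed central oligodendrocyte and astrocyte markers were highest in the same libraries. Which cells of the ganglion the astrocyte markers came from was not tested. The 8 central oligodendrocyte markers summed to 363, 186 and 700 CPM in injury and 678, 66.9 and 98.4 CPM in conduit samples, and the 8 astrocyte markers to 442, 337 and 642 CPM in injury and 828, 144 and 184 CPM in conduit samples. All 16 genes were detected in every library, and none was at 0; their part in the levels of Grin2c and Grm3 was not tested. Both batch 2 libraries lay above the other 4 for 6 of 40 members (Grid1, Grik2, Grik3, Grin2b, Grin2c and Grm3), against 6.27% of all tested genes. They lay below the other 4 for 5 members (among them Gabbr2, Gabrd and Grm4), against 5.81%.

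**Figure D4:**
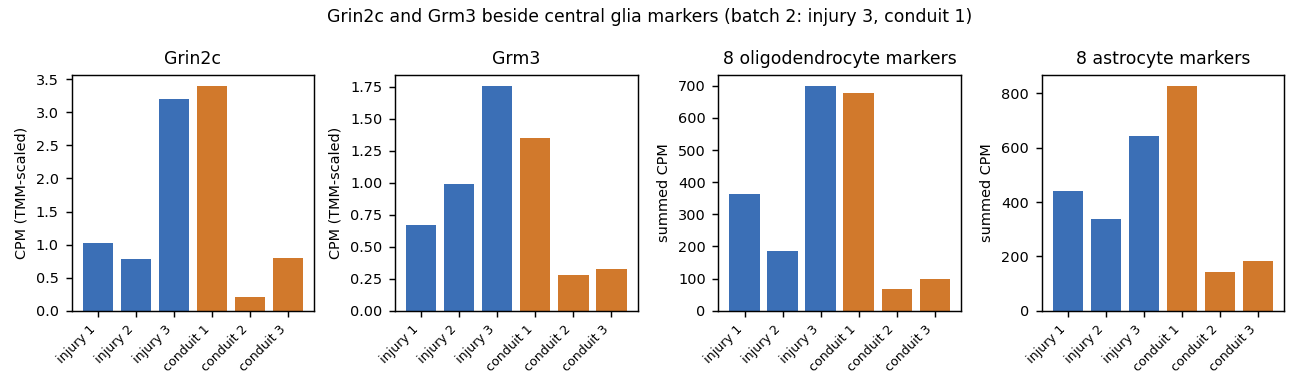
TMM-scaled CPM of Grin2c and Grm3 and summed CPM of the 8 central oligodendrocyte and 8 astrocyte markers in each library (blue injury, orange conduit). All 4 panels are highest in injury sample 3 and conduit sample 1, and lowest in conduit sample 2.

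Metabotropic glutamate receptors of group III, which sit on nerve terminals and restrain release, made up nearly all of the metabotropic level. Grm4 took 49.9% to 59.0% of the summed metabotropic FPKM, Grm7 33.0% to 38.8% and Grm8 4.82% to 7.09%. Grm4 had 31.4, 24.7 and 24.6 CPM in injury and 21.6, 25.9 and 30.1 CPM in conduit samples, so the groups overlapped (log2 fold change -0.058, SE 0.16, edgeR adjusted p = 1.00). Grm7 had 23.3, 22.6 and 25.4 CPM in injury and 18.4, 21.8 and 23.7 CPM in conduit samples. Its groups overlapped as well, with a log2 fold change of -0.16 (SE 0.12, 95% interval -0.45 to 0.13, edgeR adjusted p = 1.00), while it was -0.46 within batch 2 and -0.016 without the batch 2 libraries. Grm8 had 10.9, 11.2 and 10.8 CPM in injury and 8.69, 10.4 and 8.36 CPM in conduit samples. The Grm8 groups did not overlap, and the log2 fold change was -0.26 (SE 0.14, 95% interval -0.58 to 0.063, edgeR adjusted p = 1.00).

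GABAA receptors usually combine alpha, beta and gamma subunits. Among the alpha subunits, which set the response to benzodiazepines, Gabra2 had 79.0, 84.7 and 88.2 CPM in injury and 91.3, 92.8 and 74.1 CPM in conduit samples. Conduit sample 3 was the lowest library and conduit sample 2 the highest, so the groups overlapped, with a log2 fold change of 0.035 (SE 0.11, 95% interval -0.22 to 0.29, edgeR adjusted p = 1.00).

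Gabra3 had 20.8, 18.9 and 18.2 CPM in injury and 23.2, 20.5 and 22.1 CPM in conduit samples. Conduit sample 2 lay within the injury range, and the log2 fold change was 0.18 (SE 0.10, 95% interval -0.063 to 0.43, edgeR adjusted p = 1.00). Gabrq, the theta subunit, had 1.42 CPM in injury sample 1 and 0.226 to 0.603 CPM in the others; injury sample 1 is the library with the pituitary markers, whose part was not tested.

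Gabrg1, a gamma subunit, had 81.5, 75.6 and 81.9 CPM in injury and 81.4, 86.0 and 99.0 CPM in conduit samples. The groups overlapped, with a log2 fold change of 0.16 (SE 0.097, 95% interval -0.074 to 0.39) and an edgeR adjusted p of 1.00. In batch 2, 1 library against 1, the value for Gabrg1 was -0.0079, and without the batch 2 libraries it was 0.23.

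Shares of a subunit in its family's summed FPKM were compared for 42 combinations of a subunit and a family, and 5 (11.9%) did not overlap between the groups, near the 9.63% of all tested genes that did not overlap in CPM. They include Gabra3 in the alpha family and Grin2a and Grin3a in the NMDA family, named after their values were seen. An exact permutation test gave p = 0.1 for each, the smallest p possible with n = 3 per group. The Benjamini-Hochberg adjusted p over the 42 shares was 0.84. Shares within a family depend on each other, so the 42 were not independent and the percentage over genes is not a like measure. Within the GluN2 genes alone, the share of Grin2a overlapped between the groups. Grin3a, whose product makes NMDA receptors less permeable to calcium, took 3.60%, 3.07% and 3.59% in injury samples 1 to 3 and 4.52%, 3.64% and 3.79% in conduit samples 1 to 3. Its mean share was 3.42% ± 0.302 in injury and 3.99% ± 0.473 in conduit (SD, n = 3).

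**Figure D5:**
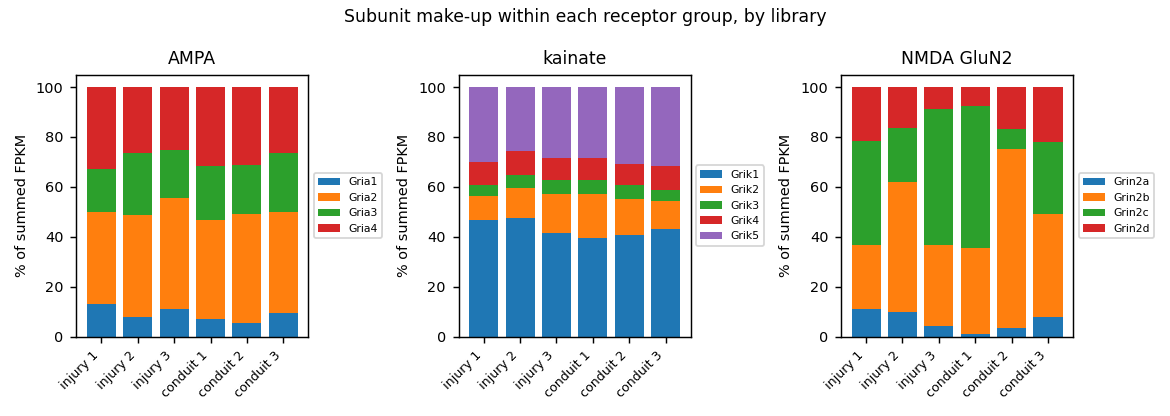
Share of each subunit in the summed FPKM of its receptor family, per library, for the AMPA, kainate and GluN2 families. The GluN2 make-up varies widely between libraries, with Grin2c from 7.73% to 57.1%, and Grik1 is the largest kainate part in every library. Shares in FPKM depend on gene length, 4948 bases for Grin2c and 24734 for Grin2b. In counts, Grin2b lay above Grin2c in every library, with 125 to 426 against 8 to 141.

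Means of the GABAB subunits lay close between the groups. Gabbr1 had 564, 547 and 555 CPM in injury and 536, 540.1 and 600.3 CPM in conduit samples, and Gabbr2 had 204, 190 and 183 CPM in injury and 169, 189 and 220 CPM in conduit samples. Conduit sample 3 was highest and conduit sample 1 lowest for both genes. The log2 fold changes were 0.0087 for Gabbr1 (SE 0.083, 95% interval -0.19 to 0.21) and 0.0035 for Gabbr2 (SE 0.11, 95% interval -0.27 to 0.28), with an edgeR adjusted p of 1.00 for each. The depth behind Gabbr1, 21507 to 23910 counts per library, was the largest of all members, and its interval on the log2 scale lay within 0.21 of 0.

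Genes that work with these receptors were followed in 7 lists holding 78 tested genes, and edgeR called 0 of them at an adjusted p under 0.05. At an unadjusted p under 0.05 there was 1 (1.28%), Zdhhc3, higher in conduit, against 5.35% of all tested genes. In 3 of 78 (3.85%), Zdhhc3, Abat and Gphn, the groups did not overlap, against 9.63% of all tested genes. DESeq2 and limma-voom also called 0 after adjustment. The list medians of the log2 fold change were -0.029 for 18 AMPA and kainate receptor partners, -0.011 for 15 glutamate synapse scaffold genes and 0.046 for 11 genes of glutamate synthesis and transport. They were 0.061 for 7 genes of GABA synthesis, transport and breakdown, 0.036 for 18 GABA receptor partners and 0.051 for 8 chloride transport genes; of the glycine receptor genes only Glrb was tested (0.017, SE 0.098). Gad2 and Slc32a1, which make and package GABA in GABAergic neurons, did not pass the filter. They stood at 0 to 0.217 and 0 to 0.118 CPM. The other 7 of the 9 genes of GABA synthesis, transport and breakdown, Gad1 among them, passed it.

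Zdhhc3, a palmitoyltransferase that modifies GABAA gamma subunits, had 100.2, 97.9 and 99.7 CPM in injury and 115, 110.3 and 113 CPM in conduit samples. The groups did not overlap, and the log2 fold change was 0.18 (SE 0.069, 95% interval 0.017 to 0.35, edgeR adjusted p = 0.897). Abat, the mitochondrial enzyme that breaks down GABA, had 68.0, 67.5 and 61.7 CPM in injury and 95.5, 70.9 and 75.8 CPM in conduit samples. It too did not overlap, with a log2 fold change of 0.30 (SE 0.13, edgeR adjusted p = 0.937). Gphn, the gephyrin scaffold of inhibitory synapses, singled out after its values were seen, was lower without overlap, at 40.0, 39.8 and 40.2 CPM in injury and 36.4, 37.4 and 27.3 CPM in conduit samples (log2 fold change -0.25, SE 0.13, edgeR adjusted p = 1.00).

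For the other genes with the smallest p in each list, the groups overlapped and the edgeR adjusted p was 1.00. The log2 fold change was -0.44 (SE 0.21) for Hap1, a trafficking partner of GABAA receptors, 0.63 (SE 0.34) for the AMPA receptor partner Grip2 and -0.19 (SE 0.14) for the AMPA receptor auxiliary Cacng5. Among scaffold genes it was -0.71 (SE 0.54) for Dlgap2 and 0.15 (SE 0.15) for Dlgap1, and among transporters 0.49 (SE 0.43) for Slc1a6, 0.39 (SE 0.37) for Slc17a8 and -0.37 (SE 0.40) for the GABA transporter Slc6a11, itself on the astrocyte list. Slc12a2, the chloride importer NKCC1, had 146, 153 and 175 CPM in injury and 224, 184 and 148 CPM in conduit samples (0.23, SE 0.16), and Clcn2, a chloride channel, gave 0.17 (SE 0.14). Slc12a5, the chloride exporter KCC2 of central neurons, stood at only 0.426 to 1.04 CPM over all 6 libraries, singled out after its values were seen.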

How the data were processed

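Gene counts and FPKM of 6 libraries were used. The authors deposited whole-number counts per gene symbol, unscaled, and FPKM values; per the submitters' processing notes, fastp, HISAT2, HTSeq, SAMtools and DESeq2 were used with the build mRatBN7.2. The strand setting, tool versions and annotation were not given in the sources used here, so antisense reads cannot be told apart. The deposited FPKM equalled count per length and total count for 14394 of 14394 genes checked (within 0.1%), so they are no second measurement.

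Groups came from the titles. Genes were filtered with filterByExpr (minimum 10 counts), scaled by TMM and tested with edgeR 4.0.16 (robust quasi-likelihood, no covariate; R 4.3.3), with DESeq2 1.42.0 and limma 3.58.1 as alternatives; the tests were tested on simulated data. Shares, ratios and sums used the deposited FPKM.

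Members and lists were chosen with earlier results of these data known. Named by rule were Grik1, Gria4, Grm7, called members, the 6 smallest p, the 3 highest FPKM per class, both GABAB genes and the 2 smallest p per partner list; other members with values, such as Gria2, Grin2c, Grm3 and Gabrq, were chosen after their values were seen. Some members, including ones named by the rule, are not reported here. Sequences came from RefSeq, build GRCr8. Precision is given as SD or SE.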

Additional observations from a re-analysis of the deposited data

How the results depend on the processing

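The count of called members was 0 under all alternatives run. They were RLE size factors, scaling to sensory neuron markers, no low-count filter, DESeq2, limma-voom, and limma-trend on deposited FPKM with pseudocounts 0.1 and 1. The replicate block, batch as a covariate, each library left out and, chosen after seeing the data, no batch 2 libraries were also run. Over all tested genes, DESeq2 called 209 (1.19%) and each other setting 0 to 38. A count of 0 members is too small to be set apart from such shares. The replicate block did not pair the samples (same-number correlations -0.417, 0.0574 and -0.0715); with it 0 members and 554 of all genes had an unadjusted p under 0.05. Members at an unadjusted p under 0.05 are given with the share of all genes in the same setting. They numbered 2 with neuron scaling (3.78%), 1 with DESeq2 (5.12%), 1 with limma-voom (4.77%) and 2 with each FPKM pseudocount (5.34% and 5.24%). Without the batch 2 libraries there was 1 (3.195%). With 1 library left out there were 0 to 4 of 40 or 41. The 4 were without conduit sample 3 (7.17%), 2 without conduit sample 1 (4.76%) and 1 without injury sample 2 (3.48%). There were 0 without injury sample 1 (6.96%), injury sample 3 (4.11%) or conduit sample 2 (3.59%). Members without overlap numbered 4 with neuron scaling (7.62% of all genes), 5 with either FPKM pseudocount (10.5%) and 15 without the batch 2 libraries (24.7%). With 1 library left out they numbered 4 to 13. There were 6, 4 and 8 when injury sample 1, 2 or 3 was absent (23.7%, 15.3% and 15.4%). There were 10, 4 and 13 when conduit sample 1, 2 or 3 was absent (18.0%, 14.4% and 27.1%). Fewer libraries overlap less. The members' median log2 fold change was -0.044 with neuron scaling, which moved the median of all genes to 0.052. The members' median was -0.13 with batch as a covariate and in batch 2 alone, -0.015 without the batch 2 libraries, and -0.13 to -0.052 with 1 library left out. Batches 1 and 3 hold 1 group each, so the batch covariate, like batch 2 alone, compares only conduit sample 1 with injury sample 3.

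Some named members changed sign between settings, and the cause was not tested. Gria4 was -0.013 with limma-voom, -0.067 and -0.045 with FPKM pseudocounts of 0.1 and 1, -0.014 with the replicate block and -0.11 without the batch 2 libraries. Gabrg1, at 0.16 in the main fit, was -0.0079 with batch as a covariate and in batch 2 alone. Grik5 was 0.022 with neuron scaling and 0.070 without the batch 2 libraries. With FPKM pseudocounts of 0.1 and 1, Gabra2 was -0.026 and -0.025, Gabbr1 -0.048 and -0.048, and Gabbr2 -0.058 and -0.057. With batch as a covariate and in batch 2 alone, which rest on the same pair of libraries, Gabbr1 was -0.051 and Gabbr2 -0.11. Gabbr2 was -0.0033 with limma-voom and -0.0034 with the replicate block. With 1 library left out the ranges were -0.080 to 0.16 for Gria4, -0.25 to 0.024 for Grin1, -0.13 to 0.086 for Grik5, -0.18 to 0.078 for Grm4, -0.016 to 0.13 for Gabra2, -0.046 to 0.039 for Gabbr1 and -0.10 to 0.090 for Gabbr2. Grik1, Gria1, Grin2a, Grm7, Grm8 and Gabra3 kept their sign in each of these settings. Scarce subunits such as Grin2a and Grin2c, with 7 to 47 and 8 to 141 counts per library, limit what the depth can show.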
